A study of Gossypium hirsutum with 24 samples.

Results

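Late anther transcripts were defined here as cotton probe sets whose level in anthers of 8 mm buds stood well above that in anthers of both smaller bud sizes. The rule took the median of the 3 arrays of a group and required a level of at least 6 in 8 mm anthers, at least 1.5 above 7 mm anthers and at least 1.5 above 5 mm anthers, all on the log2 scale of the deposited table. It found 191 of 23977 probe sets that are not controls, or 0.797%. The differences between anther sizes chose the members, so they are given below as a description, with no test. "Highest at 8 mm" holds among anthers: 130 members had their highest group median in 8 mm anthers, while 29 had it in seedling, 16 in leaf and 9, 4 and 3 in buds of 8, 5 and 7 mm.

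The study measured transcripts of upland cotton (Gossypium hirsutum) on 24 Affymetrix Cotton Genome arrays, 3 per group. The tissues were anthers taken at bud sizes of 5, 7 and 8 mm, and what remained of those buds, here called buds, as separate samples. Young leaf came from plants about a month old and whole seedlings were taken 5 days after germination. No genotype or treatment other than tissue and bud size is given in the labels, and replicates are described as biological without naming the plants.

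An anther holds the cells that become pollen and, around them, the tapetum, a secretory layer that feeds the developing pollen and supplies much of the pollen wall before it breaks down. Late anther programmes are known in plants for genes of pollen maturation, storage and wall building, and many of those genes are silent in leaves and roots. The series text describes stages before, during and after meiosis, with the tapetum absent, present and degenerated, but does not tie a stage to a bud size. Groups are therefore named by size. Because anthers are mixtures of cells, fewer cells of a type and less RNA per cell cannot be told apart in these data.

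The annotation used here gave a gene symbol for 11 of the 191 members, and each symbol was a locus number of a protein-coding gene without a product name. No role can therefore be given to any member, the tissue labels could not be checked against marker genes, and no gene list by function found a member. The other 180 are given by probe set name. The names begin with the species whose transcripts the probes were designed from. Of the members, 90 began with Ghi and 67 with GhiAffx (G. hirsutum), 21 with Gra and 9 with GraAffx (G. raimondii), 2 with GarAffx (G. arboreum) and 2 with GbaAffx (G. barbadense). Gra probe sets made up 11.0% of members, 5.57% of the other 10471 probe sets with a median of at least 6 in 8 mm anthers and 14.3% of all probe sets, so the direction of the difference turns with what members are set against. GraAffx made up 4.71%, 4.69% and 15.2% of the same sets. Among the 191, 86 names (45.0%, against 38.7% of all probe sets) ended in s_at and 13 (6.81%, against 6.49%) in x_at, types that can bind transcripts of several related genes. In all 16 members, in 8 pairs, shared a cluster number in their names, so the 191 stand for at most 183 transcript clusters.

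Individual anther arrays differed from their groups at these transcripts, and the difference bears on every value below. Over the 191 members, the median level in 5 mm anthers was 5.51, 5.52 and 5.29 in replicates 1, 3 and 4. In 7 mm anthers it was 6.26 and 6.08 in replicates 1 and 2 but 7.62 in replicate 3, and in 8 mm anthers it was 9.31, 9.31 and 8.76 in replicates 1, 6 and 7. Replicate 3 of the 7 mm anthers was thus between its own group and the 8 mm anthers. It was the highest array of its group for 183 members, stood over 1 above both others for 92 and over 2 above both for 42. The 92 are 48.2% of members, against 0.640% of the other probe sets with a median of at least 6 in 8 mm anthers. Its median position was 45.3% of the way from replicates 1 and 2 of the 7 mm anthers to replicates 1 and 6 of the 8 mm anthers. Among 383 probe sets that were instead at least 1.5 lower in 8 mm than in 7 mm anthers, with a median of at least 6 in 7 mm anthers, the same array had moved 4.80% of the way. Replicate 7 of the 8 mm anthers was the lowest of its group for 118 members, or 61.8%, against 28.3% of the other probe sets at that level, and lay over 2 below both others for 16. What these arrays differ in was not tested.

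The group median limits the weight of such arrays but does not remove it. Without 7 mm replicate 3 the rule found 207 probe sets, including all 191, and without 8 mm replicate 7 it found 189, of which 170 were among the 191. With both left out it found 201, sharing 172. With the mean of 3 arrays in place of the median it found 165, sharing 156. Where the 2 arrays were kept, membership moved more. Without 7 mm replicate 1 or 2 the rule found 162 or 157, sharing 158 and 156. Without 8 mm replicate 1 or 6 it found 191 or 188, sharing 160 and 158.

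**Figure D1:**
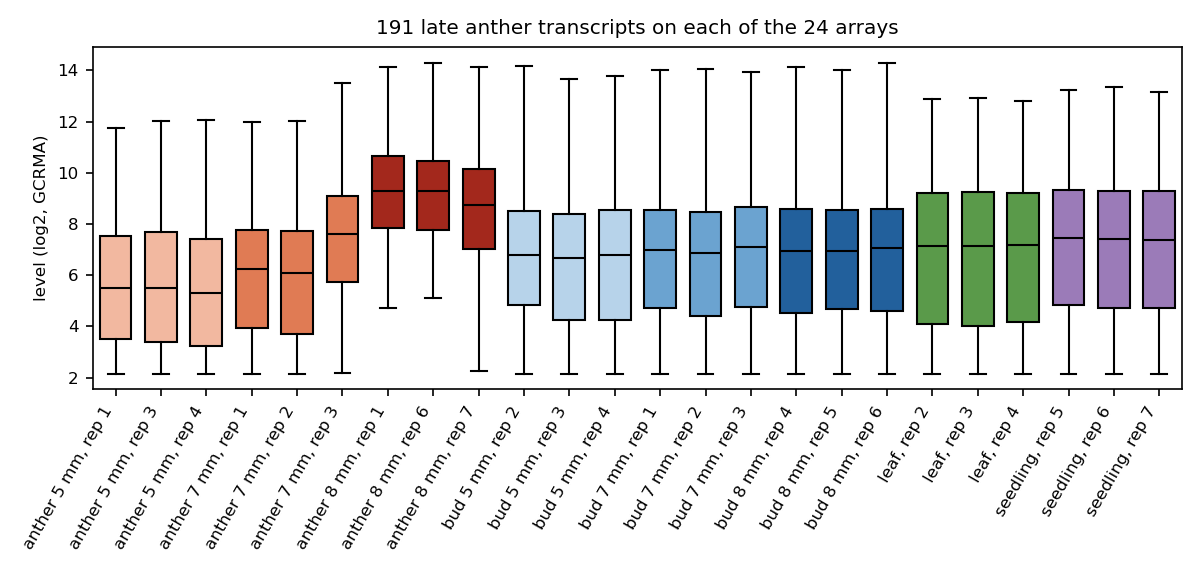
Levels of the 191 late anther transcripts on each array, as boxes (quartiles, with the median as a line) and whiskers to the lowest and highest member; the vertical axis is the deposited log2 level. The medians are 7.62 for 7 mm anther replicate 3, against 6.26 and 6.08 for the other 7 mm arrays, and 8.76 for 8 mm anther replicate 7, against 9.31 for both other 8 mm arrays, while the buds, leaf and seedling boxes differ little between replicates.

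In typical members the late rise was a few-fold, on top of a level already present in younger anthers. The middle member had a level of 5.49 in 5 mm, 6.27 in 7 mm and 9.21 in 8 mm anthers, these being medians over members of the group medians. The lead of a member is its 8 mm anther median minus the higher of the 2 younger medians. It was 2.23 in the middle member, a 4.70-fold difference, with quartiles of 1.88 and 3.63, and 2.34 without the 2 arrays that stood apart. The lead was under 2 in 64 members, from 2 to under 3 in 66, from 3 to under 5 in 34 and at least 5 in 27. Counting differences of means of at least 1 with no overlap of arrays, 170 members were higher and 0 lower in 8 mm than in 7 mm anthers, where 2.93% of all tested probe sets were higher and 4.86% lower. Likewise 184 were higher and 0 lower in 8 mm than in 5 mm anthers (6.66% and 6.6% of all tested). For 164 members all 3 arrays of 8 mm anthers exceeded all 6 arrays of younger anthers, against 9.32% of all tested probe sets; these counts follow largely from the rule. For the other 27 at least 1 array overlapped.

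The 2 younger sizes were not alike for every member. By the same count 50 members were higher and 2 lower in 7 mm than in 5 mm anthers, against 6.22% and 4.74% of all tested probe sets. In 47 members the 7 mm median was at least 1 above the 5 mm median, so that the level climbed at both steps. In 14 members it was at least 1 lower, and in 130 the younger sizes lay within 1 of each other. The split depends on which 7 mm arrays are used: 88 members climbed without 7 mm replicate 1 and 89 without replicate 2, when replicate 3 is 1 of the 2 arrays used, and 5 and 3 members were then lower. GhiAffx.10621.1.A1_s_at is an example of a climb, with levels of 3.37, 5.28 and 4.26 in 5 mm anthers, 11.22, 11.24 and 11.61 in 7 mm anthers and 13.38, 13.25 and 13.07 in 8 mm anthers. The 3 sizes did not overlap for it, and the earlier step was the larger.

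Near the limit of the rule, Ghi.1873.1.S1_s_at, Ghi.6362.1.S1_at and GhiAffx.56673.1.S1_at were just inside, with smaller steps of 1.503, 1.518 and 1.524. Ghi.10688.1.S1_s_at, Ghi.5852.2.A1_s_at and GhiAffx.35152.2.A1_at were just outside, at 1.498, 1.497 and 1.490. With a step of 1 in place of 1.5 there were 373 probe sets, and with a step of 2 there were 127.

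The 8 members with the largest lead were near the lower limit of the scale in most younger anther arrays and high in 8 mm anthers. The lowest value in the table was 2.16, and background, taken from control probe sets without target, was 2.23. GhiAffx.32086.1.S1_at had 2.94, 2.24 and 2.32 in 5 mm anthers, 3.42, 3.35 and 13.18 in 7 mm anthers and 14.13, 14.31 and 13.76 in 8 mm anthers, the highest 8 mm median of all members. Its lead of 10.71 is a 1672-fold difference between medians, and 7 mm replicate 3 was close to the 8 mm level. Gra.2205.1.S1_at had 13.01, 13.65 and 8.76 in 8 mm anthers and 3.08, 3.26 and 8.94 in 7 mm anthers, so that its 2 groups overlapped through 7 mm replicate 3 and 8 mm replicate 7. It lay at or under background throughout leaf, seedling, 5 mm and 7 mm buds, and its 8 mm anther mean was at least 760.0-fold above background.

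Ghi.166.1.S1_s_at had 12.56, 12.94 and 11.56 in 8 mm anthers and 3.23, 3.38 and 11.02 in 7 mm anthers. It lay between 3.78 and 7.39 in the 9 bud arrays, while in leaf it was at background and at least 1109-fold lower than in 8 mm anthers. Its pair by cluster number, Ghi.166.2.S1_x_at, had a lead of 5.75 and medians of at most 2.21 in every group other than 8 mm anthers. Both probe sets of the pair were high in 8 mm anthers and on 7 mm replicate 3, and they differed in buds.

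GhiAffx.44799.1.S1_at stood at 10.71, 10.93 and 8.16 in 8 mm anthers, against 2.36, 2.36 and 4.96 in 7 mm anthers. Outside anthers it was present in leaf, at 6.95, 6.99 and 6.03, and between 2.35 and 2.83 in buds and seedlings. Ghi.1624.1.S1_at had 10.45, 10.11 and 4.36 in 8 mm anthers and between 2.16 and 2.42 on all 6 arrays of younger anthers. Here 8 mm replicate 7 was far below its group, and 7 mm replicate 3 was close to its own.

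Gra.628.6.S1_s_at had 10.36, 10.06 and 8.26 in 8 mm anthers and 2.40, 2.39 and 7.62 in 7 mm anthers, with no array above 4.08 in other tissues. Gra.2151.1.A1_at had 12.13, 9.51 and 4.55 in 8 mm anthers, the widest of these spreads, and one 5 mm anther array, replicate 1, at 6.78. On 14 of the 15 arrays of other tissues it was at 2.16, and its 8 mm mean was at least 90.3-fold above background. Ghi.4013.2.S1_at had 10.50, 10.21 and 9.44 in 8 mm anthers and 3.29, 2.61 and 9.89 in 7 mm anthers, so 7 mm replicate 3 lay within the 8 mm range. Its pair Ghi.4013.1.A1_at gave medians of 9.70 in 8 mm anthers and 2.95 in 7 mm anthers.

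**Figure D2:**
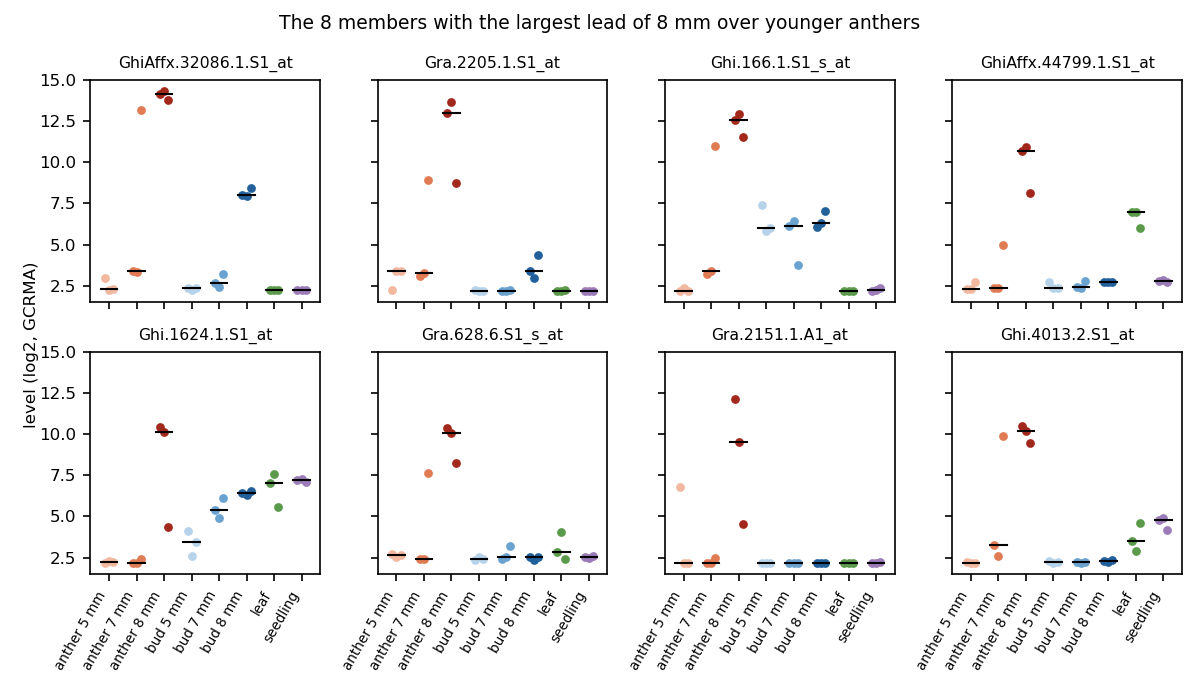
Log2 levels of the 8 members with the largest lead on all 24 arrays; each point is an array, each horizontal line a group median, and groups run from anthers and buds by size to leaf and seedling. Single high points at 7 mm are replicate 3, at 13.18 for GhiAffx.32086.1.S1_at, and single low points at 8 mm are replicate 7, at 4.36 for Ghi.1624.1.S1_at.

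The 27 members with a lead of at least 5 had 8 mm anther medians between 7.48 and 14.13. In 20 of them 7 mm replicate 3 stood over 2 above both others of its group, and in 9 of them 8 mm replicate 7 lay over 2 below both others. Of the 27, 16 reached a median of 6 in no other tissue. By contrast, 42 of the 64 members with a lead under 2 reached it in all 5 groups of buds, leaf and seedling, and 3 reached it in none. Large leads were thus mostly found where other tissues were low, and small leads where other tissues were also high.

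The 5 highest medians in 8 mm anthers belonged, besides GhiAffx.32086.1.S1_at, Gra.2205.1.S1_at and GhiAffx.10621.1.A1_s_at, to Ghi.4750.1.S1_s_at and GhiAffx.61663.1.S1_s_at. Ghi.4750.1.S1_s_at had 13.68, 14.06 and 14.14 in 8 mm anthers and lay between 11.69 and 12.48 on the 15 arrays of other tissues. GhiAffx.61663.1.S1_s_at had 13.39, 13.76 and 12.79 in 8 mm anthers and between 9.50 and 12.18 in other tissues. Both are abundant everywhere and rise further in late anthers, in contrast to GhiAffx.32086.1.S1_at and Gra.2205.1.S1_at, which are near background in leaf and seedling.

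Outside anthers the members fell into 3 groups of very different breadth, described by how many of the 5 groups of buds, leaf and seedling had a median of at least 6. In 44 members (23.0%) none did, in 54 (28.3%) between 1 and 4 did, and in 93 (48.7%) all 5 did. Among the other probe sets with a median of at least 6 in 8 mm anthers, the shares at none and at all 5 were 2.40% and 83.0%. The 44 members with no other tissue at that level had middle levels of 3.12, 3.18 and 7.84 in anthers of 5, 7 and 8 mm, and between 2.58 and 2.87 in the other tissues. Their middle lead was 4.39, a 21.0-fold difference. The 93 broad members had middle levels of 7.25, 7.61 and 10.04 in anthers, between 8.47 and 8.58 in buds, 8.94 in leaf and 9.18 in seedling. For them the younger anthers were the lowest tissues, and 53 of the 93 had their highest median in 8 mm anthers.

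**Figure D3:**
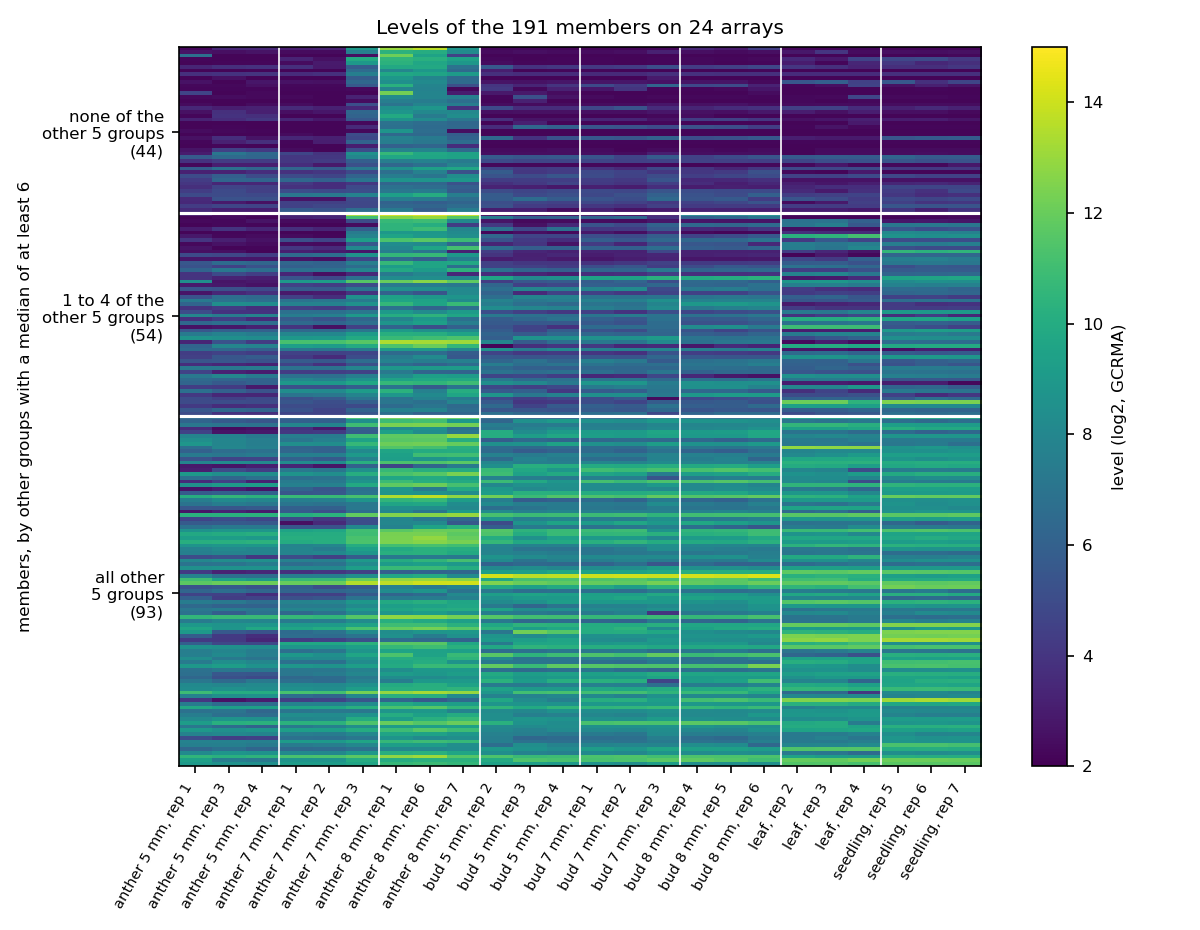
Log2 level of every member (rows) on every array (columns), with members grouped by how many of the 5 other groups had a median of at least 6 and sorted by lead within each block. The 44 members at the top are mostly dark outside 8 mm anthers and 7 mm replicate 3, while the 93 at the bottom are mostly bright in buds, leaf and seedling and darker in 5 and 7 mm anthers.

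By tissue, 12 members reached 6 in buds but not in leaf or seedling, and 21 in leaf or seedling but not in buds. In 4 members no array of the other tissues exceeded background, a count small enough to name although it was made after the values were seen. GhiAffx.2189.1.S1_at is described below as LOC107930564. Ghi.8554.1.S1_at had 7.58, 7.13 and 6.65 in 8 mm anthers, against 2.22, 3.09 and 6.12 in 7 mm anthers. Ghi.7210.2.S1_x_at had 8.79, 6.67 and 2.49, against 2.18, 2.18 and 2.28, so that 8 mm replicate 7 was near background. GraAffx.13207.1.A1_s_at had 6.05, 6.24 and 3.70, against 2.20, 2.16 and 3.12. At the other end, 167 members were above background on all 15, some of them barely. GhiAffx.32086.1.S1_at, for one, is counted there with 2.24 on every leaf and seedling array, against a background of 2.23. The 167 are thus not all clearly present in every tissue. Neither the 4 nor the 167 has a share over all probe sets beside it, so nothing is read from their size.

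A locus number was known for 11 members, and they show both the narrow and the broad kind. LOC107930564 had 2.19, 2.16 and 2.16 in 5 mm anthers, 2.40, 2.16 and 5.04 in 7 mm anthers and 6.44, 6.46 and 5.83 in 8 mm anthers. Outside anthers it held a single value of 2.16, under background, so its 8 mm anther mean was at least 16.1-fold higher than in any of them. LOC107957278 had 6.86, 6.62 and 5.92 in 8 mm anthers, with a lead of 2.15, and lay between 2.85 and 4.74 in other tissues. These 2 loci had no overlap between 8 mm anthers and any other group, nor did LOC107919941 and LOC107907413, described next.

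LOC107919941 and LOC107907413 were abundant in every floral sample. LOC107919941 had 12.32, 12.35 and 11.74 in 8 mm anthers, against 10.00, 10.04 and 10.98 in 7 mm anthers, and between 8.08 and 11.36 in other tissues. LOC107907413 had 12.83, 12.79 and 12.30 in 8 mm anthers and 10.69, 10.56 and 11.59 in 7 mm anthers. In buds it lay between 10.66 and 11.56, and in leaf and seedling between 6.59 and 7.33, so it separated floral from vegetative samples by more than 3 log2 units. LOC107887176 was similar in 8 mm anthers and buds, with 11.99, 11.53 and 12.03 in 8 mm anthers and 11.67, 11.63 and 11.28 in 8 mm buds.

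LOC107940910 and LOC107889072 had their highest levels outside flowers. LOC107940910 had 6.61, 6.40 and 6.11 in 8 mm anthers, with a lead of 1.88, but 12.75, 12.91 and 12.42 in leaf and 13.24, 13.23 and 13.15 in seedling. Its 8 mm anther median minus its seedling median was -6.82. LOC107889072 had 8.39, 8.79 and 8.87 in 8 mm anthers, against 8.99, 5.62 and 5.29 in 5 mm anthers, and 12.42, 12.56 and 12.54 in seedling. Its 5 mm replicate 1 was above all 8 mm arrays, and its 5 mm buds also spread from 7.10 to 12.16.

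LOC107925162 had 9.77, 10.02 and 8.70 in 8 mm anthers and 11.03, 11.06 and 11.20 in seedling. LOC107947118 had 6.04, 5.37 and 8.14 in 8 mm anthers, one of the members in which replicate 7 was the highest array, and 6.31, 6.46 and 6.28 in seedling. LOC107912138 had 6.52, 6.12 and 6.58 in 8 mm anthers and 7.06, 7.09 and 7.63 in 8 mm buds. LOC107954048 had 6.90, 5.67 and 6.96 in 8 mm anthers and 8.52, 8.52 and 7.80 in 8 mm buds. In these last 2 loci every 8 mm bud array was above every 8 mm anther array.

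**Figure D4:**
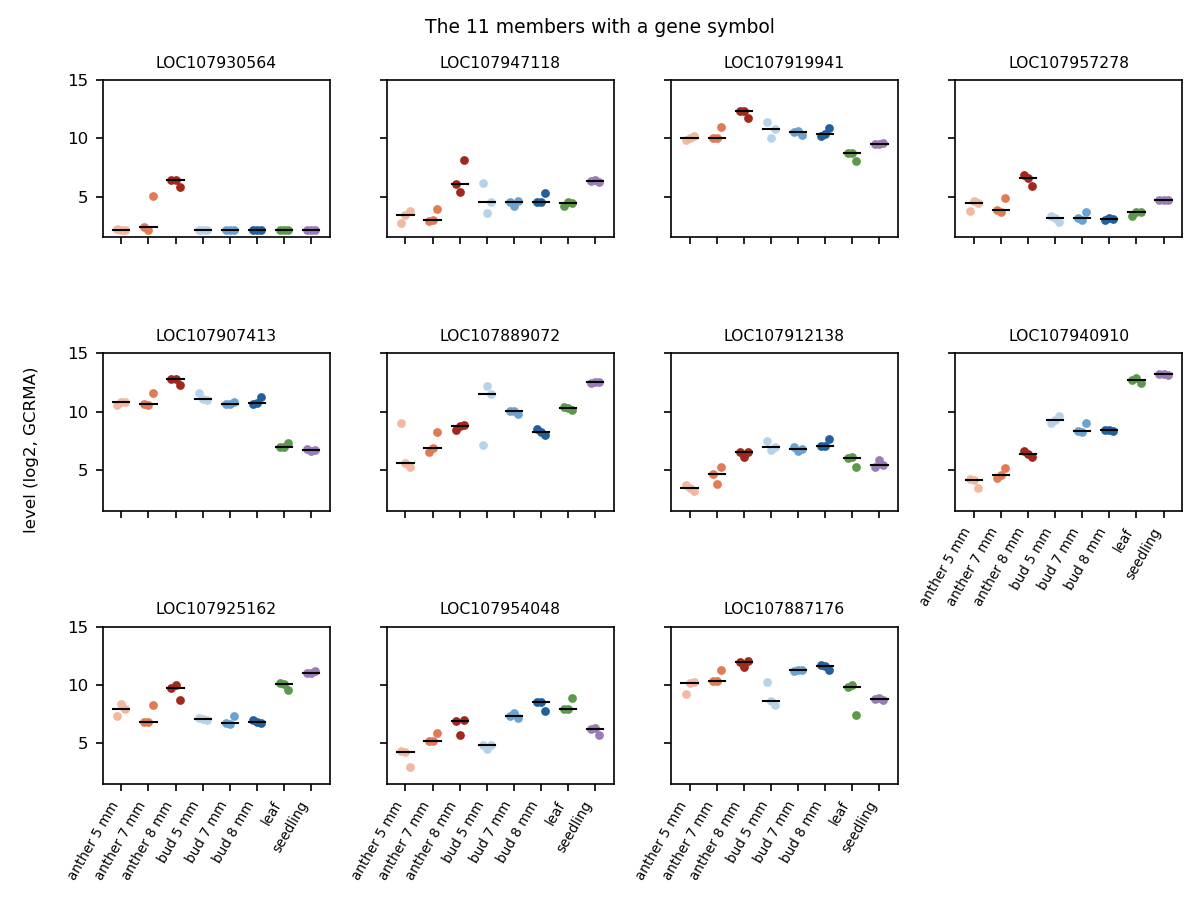
Log2 levels of the 11 members with a locus number, drawn as points for arrays and lines for group medians, in order of lead. LOC107930564 stands at 2.16 on all arrays of other tissues, whereas LOC107940910 is 12.42 or higher in leaf and seedling and 6.61 or lower in 8 mm anthers.

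Most members were higher in 8 mm anthers than in other tissues, but not all. Counting differences of group means of at least 1 with no overlap of arrays, 142 members were higher and 19 lower in 8 mm anthers than in 8 mm buds, where 11.1% of all tested probe sets were higher and 13.9% lower. Against leaf, 128 were higher and 24 lower (18.4% and 17.8% of all tested). Against seedling, 121 were higher and 24 lower (17.9% and 17.1%). The median difference over members was 2.25 from buds, 2.27 from leaf and 1.94 from seedling, against 0.06, 0.05 and 0.08 over all tested probe sets. The 8 mm anther arrays also chose the members, so these counts are descriptions.

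The scale of the arrays moves part of this picture. The hybridisation spike-ins bioB, bioC and bioD, added at a fixed amount, averaged 9.63 ± 0.50 (SD, n = 3) in 8 mm anthers, against 8.43 ± 0.31 in 8 mm buds, 9.15 ± 0.45 in leaf and 9.53 ± 0.28 in seedling. In 5 and 7 mm anthers they averaged 8.98 ± 0.32 and 9.18 ± 0.46. Scaling each array by them moved the median difference between 8 mm anthers and 8 mm buds over all tested probe sets to -0.78, and left 84 members higher and 30 lower. With this scaling the rule found 104 probe sets, 103 of them among the 191. Why the spike-in levels differ was not tested.

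The question of whether the late anther transcripts also change with size in the rest of the bud can be tested, because no bud array entered the rule. The test is not fully separate from the rule, since limma pooled the spread of all groups, anthers included. A wide spread among the anther arrays of a member makes a call in buds harder to reach. Few members were called, but the share called higher from 5 to 8 mm was above that of all tested probe sets. From 5 to 8 mm buds, 8 of 191 members (4.19%) were called higher and 1 (0.524%) lower (limma, adjusted p under 0.05 and a log2 difference of at least 1). Of all 17666 tested probe sets, 0.906% were called higher and 0.651% lower. Among the other probe sets with a median of at least 6 in 8 mm anthers, the shares were 0.602% and 0.497%. In a limma fit without the anther arrays, 9 members were called higher and 2 lower, against 0.566% and 0.385% of all tested probe sets. These 9 did not include all of the 8 called higher in the fit of all arrays. The median difference of the members was 0.03, and 168 of the 191 (88.0%) kept all 3 bud medians within 1 of each other. That share was lower than the 94.8% of the other probe sets with a median of at least 6 in 8 mm anthers.

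Ghi.7921.1.S1_x_at, which carries LOC107954048, had 8.52, 8.52 and 7.80 in 8 mm buds, against 4.82, 4.48 and 4.85 in 5 mm buds, a log2 difference of 3.56 (SE 0.39, limma adjusted p = 4.09e-05). The 7 mm buds lay between, at 7.38, 7.59 and 7.18, and were already higher than 5 mm buds by 2.67 (limma adjusted p = 0.00188). GhiAffx.10836.1.A1_at had 8.28, 8.47 and 7.32 in 8 mm buds, against 5.36, 4.61 and 3.86 in 5 mm buds, a difference of 3.42 (SE 0.43, limma adjusted p = 1.85e-04). That call was lost when limma was fitted to these 6 arrays alone (adjusted p = 0.0956). Neither probe set had overlapping arrays at 5 and 8 mm. In both, the levels in 8 mm buds were above those in 8 mm anthers.

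GhiAffx.32086.1.S1_at, the member with the largest lead in anthers, had 2.34, 2.24 and 2.36 in 5 mm buds, 2.66, 2.39 and 3.22 in 7 mm buds and 7.98, 7.95 and 8.45 in 8 mm buds. The difference of 5.82 from 5 mm buds (SE 1.55, limma adjusted p = 0.0468) carries an error that includes the spread of 7 mm anthers, where replicate 3 stood apart. In a fit of the 15 arrays without anthers its adjusted p was 3.35e-08 (SE 0.18). Leaving out any 1 of the 6 bud arrays from the fit of all arrays ended the call, with limma adjusted p between 0.0719 and 0.154. Other members with large leads stayed low in 8 mm buds, such as Ghi.4013.2.S1_at at 2.26, 2.23 and 2.34 and Gra.628.6.S1_s_at at 2.52, 2.36 and 2.53.

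A further 5 members were called higher from 5 to 8 mm buds in the fit of all arrays. Ghi.10433.1.S1_s_at rose by 2.50, Ghi.1097.1.S1_s_at (LOC107887176) by 2.46, GhiAffx.22487.1.A1_s_at by 2.03, GhiAffx.8481.1.S1_at by 1.44 and GhiAffx.42473.1.S1_at by 1.31, with limma adjusted p between 0.00224 and 0.0243. Ghi.8804.1.S1_at fell to 3.50, 2.83 and 2.62 in 8 mm buds, against 4.70, 4.79 and 4.42 in 5 mm buds (log2 difference -1.66, limma adjusted p = 0.0102), and the call was lost when replicate 5 of the 8 mm buds was dropped (adjusted p = 0.0627) or when limma used just these 6 arrays (adjusted p = 0.102). The number called higher dropped to 4 when replicate 3 or 4 of the 5 mm buds, or replicate 4 or 5 of the 8 mm buds, was left out. The number called lower was 6 in the absence of replicate 2 of the 5 mm buds, 2 in that of its replicate 3 and 0 in that of replicate 5 of the 8 mm buds. Without the 2 anther arrays that stood apart, 13 were called higher. Counting arrays that did not overlap, of any size of difference, 18 members (9.42%) were lower in 8 mm than in 5 mm buds, against 11.7% of all tested probe sets. Of these, 17 had every 8 mm anther array above every 5 mm anther array, a pattern of 1.61% of all tested probe sets; the anther side of it follows from the rule, so nothing is read from that share.

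From 7 to 8 mm buds limma called 0 members in either direction, with 12 members at an unadjusted p under 0.05. Unadjusted p was not counted over all tested probe sets, so nothing is read from the 12. Of all tested probe sets 0.0736% were called higher and 0.175% lower. In the fit of the 15 arrays without anthers GhiAffx.32086.1.S1_at was called, higher by 5.37 (adjusted p = 4.06e-08). From 5 to 7 mm buds limma called 3 members higher and 0 lower, against calls for 0.73% and 0.232% of all tested. The 3 called were the probe set of LOC107954048, GhiAffx.10836.1.A1_at with 1.97 (limma adjusted p = 0.0258) and Ghi.1097.1.S1_s_at (LOC107887176) with 2.19 (limma adjusted p = 0.0430). At an unadjusted p under 0.05 there were 16 members in either direction, again with no count over all tested probe sets. Ghi.1097.1.S1_s_at kept its call in the absence of replicate 2 of the 5 mm buds and lost it without any 1 of the other 5 bud arrays (adjusted p between 0.0593 and 0.128), and GhiAffx.10836.1.A1_at did so when replicate 4 of the 5 mm buds or replicate 2 of the 7 mm buds was dropped (adjusted p = 0.0818 and 0.0586). Both calls were also lost when limma was fitted to these 6 arrays alone, with adjusted p of 0.431 for GhiAffx.10836.1.A1_at and 0.503 for Ghi.1097.1.S1_s_at. In the fit of the 15 arrays without anthers Ghi.1097.1.S1_s_at was not called either (limma adjusted p = 0.130). The count was 6 in the absence of replicate 2 of the 5 mm buds, and 1 in that of its replicate 4 or of replicate 2 of the 7 mm buds. With replicate 3 of the 7 mm buds dropped, 1 member was called lower.

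In all 7 members, against 0.181% of all tested probe sets, had every 8 mm bud array above every younger bud array and a median at least 1 higher than both. GhiAffx.32086.1.S1_at and Gra.2205.1.S1_at, the members with the largest leads in anthers, were among them. Gra.2205.1.S1_at had 2.21, 2.20 and 2.16 in 5 mm buds, 2.16, 2.16 and 2.21 in 7 mm buds and 3.39, 2.94 and 4.35 in 8 mm buds.

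Differences between the tissues outside anthers were common among the members. Against leaf, 8 mm buds had 45 members higher and 53 lower, or 23.6% and 27.7%, where 15.7% of all tested probe sets were called in each direction. Against seedling, 33 were higher and 60 lower in 8 mm buds, or 17.3% and 31.4%, where 14.5% were called in each direction. Of the other probe sets with a median of at least 6 in 8 mm anthers, 18.7% were higher and 13.9% lower in buds than in leaf. Their shares against seedling were 16.7% higher and 11.6% lower, so the 17.3% of members called higher was near that share. Spike-in scaling turned the balance, with 55 members higher and 33 lower in buds than in leaf and 54 higher and 21 lower than in seedling, while the middle difference over the 17666 tested moved to 0.47 and 0.87. In the deposited scale 42 members were lower in 8 mm buds than in both leaf and seedling and 25 higher than in both. Such double calls were not counted over all tested probe sets, so nothing is read from these numbers.

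Among members higher in buds, Ghi.8550.1.S1_at had 9.96, 10.04 and 10.30 in 8 mm buds, against 2.86, 2.96 and 3.63 in leaf, a difference of 6.95 (SE 0.42, limma adjusted p = 7.10e-11). It was also high in seedling, at 9.55, 9.61 and 9.68. GhiAffx.22487.1.A1_s_at was 5.71 above leaf (limma adjusted p = 6.12e-09). GhiAffx.54359.1.S1_at had 8.58, 8.49 and 8.51 in 8 mm buds, against 3.06, 3.06 and 2.27 in seedling, a difference of 5.73 (limma adjusted p = 6.71e-11). It was equally low in leaf, at 3.06, 3.06 and 2.88, so floral and vegetative arrays did not overlap for it. Gra.2094.3.A1_s_at was 5.00 above seedling (limma adjusted p = 8.21e-09). GhiAffx.32086.1.S1_at was 5.89 above both leaf and seedling (limma adjusted p = 0.00355 and 0.00391), with all 6 vegetative arrays at 2.24.

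Among members lower in buds, Ghi.1464.1.S1_s_at had 2.83, 3.61 and 3.36 in 8 mm buds, against 9.90, 10.07 and 9.71 in leaf and 9.85, 9.97 and 9.93 in seedling. The differences were -6.63 (limma adjusted p = 8.16e-10) and -6.65 (limma adjusted p = 8.75e-10). In 8 mm anthers it stood at 11.30, 12.05 and 10.61, so buds were low between 2 high tissues. Gra.2939.2.S1_s_at had 5.64, 5.80 and 5.19 in 8 mm buds, against 12.07, 12.09 and 10.40 in leaf and 12.47, 12.39 and 12.41 in seedling, differences of -5.98 and -6.88 (limma adjusted p = 1.51e-09 and 2.25e-10). Ghi.6075.1.S1_s_at was highest in leaf, with 12.88, 12.78 and 12.81 in leaf, against which 8 mm buds fell by 5.66 on the log2 scale (limma adjusted p = 1.53e-07). Its 8 mm anthers had 11.48, 11.13 and 10.18.

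Between the vegetative tissues, 39 members were higher in seedling than in leaf and 16 lower, or 20.4% and 8.38%, where 8.97% of all tested probe sets were higher and 8.47% lower. Ghi.7797.1.S1_s_at had 10.63, 10.33 and 10.49 in seedling, against 4.34, 3.47 and 2.72 in leaf, a difference of 6.98 (SE 0.75, limma adjusted p = 7.07e-07). It was 7.31 lower in 8 mm buds than in seedling (limma adjusted p = 1.47e-07), and in 8 mm anthers replicates 1 and 6 had 7.55 and 7.00 while replicate 7 had 3.18. Ghi.8550.1.S1_at and GhiAffx.39932.1.A1_at were 6.46 and 6.15 higher in seedling (limma adjusted p = 6.50e-10 and 6.57e-11). GhiAffx.39932.1.A1_at held exactly the same value, 3.02, on all 3 leaf arrays, so leaf has no measured spread and the size of its difference is approximate. In the other direction GhiAffx.10836.1.A1_at had 5.44, 5.10 and 4.53 in seedling, against 10.89, 10.89 and 10.89 in leaf (log2 difference -5.87, limma adjusted p = 4.70e-09). Ghi.6075.1.S1_s_at and GhiAffx.44799.1.S1_at differed by -4.12 and -3.88 (limma adjusted p = 2.14e-05 and 6.61e-05). Spike-in scaling left 19 members higher and 16 lower in seedling.

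**Figure D5:**
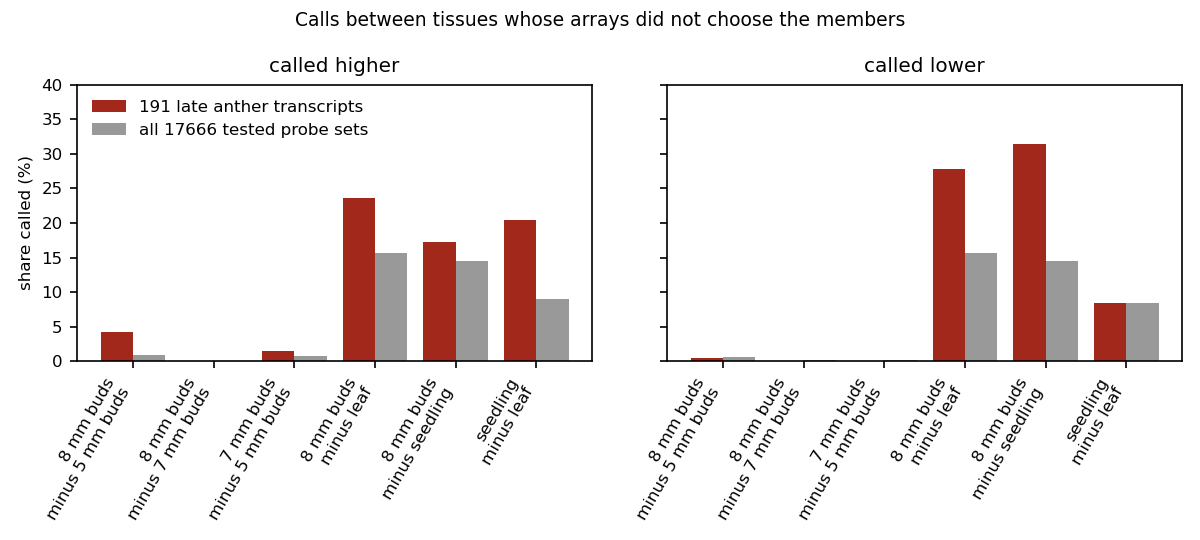
Share of the 191 members (red) and of all 17666 tested probe sets (grey) called higher (left) or lower (right) by limma in 6 comparisons of tissues whose arrays did not enter the rule. The members stand at 4.19% higher from 5 to 8 mm buds, against 0.906% of all tested probe sets, and at 31.4% lower in 8 mm buds than in seedling, against 14.5%.

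The members at the highest level in each other tissue show how far the late anther rise can be from a tissue's own level. In 8 mm buds the highest was GarAffx.29310.2.S1_s_at, with 14.14, 14.03 and 14.30 in 8 mm buds and 9.72, 9.98 and 8.28 in 8 mm anthers. It was followed by Ghi.4750.1.S1_s_at, Ghi.5580.1.S1_s_at, LOC107887176 and GhiAffx.61663.1.S1_s_at, of which Ghi.5580.1.S1_s_at had 12.85, 12.95 and 12.68 in 8 mm anthers and 11.75, 11.66 and 10.95 in 8 mm buds. In leaf the highest were Ghi.6075.1.S1_s_at, LOC107940910, Ghi.10433.1.S1_s_at, Ghi.6515.1.S1_at and Gra.2939.2.S1_s_at. Ghi.10433.1.S1_s_at had 6.26, 5.59 and 6.46 in 8 mm anthers, against 12.55, 12.60 and 12.46 in leaf and 13.16, 13.35 and 13.14 in seedling, and its median difference of -6.90 from the highest other tissue was the lowest of all members. Ghi.6515.1.S1_at had 8.52, 7.47 and 8.52 in 8 mm anthers and 12.45, 12.33 and 12.42 in leaf. In seedling LOC107940910, Ghi.10433.1.S1_s_at, Ghi.137.1.A1_at, LOC107889072 and Gra.2939.2.S1_s_at were highest. Ghi.137.1.A1_at had 10.99, 10.97 and 10.23 in 8 mm anthers and 12.58, 12.57 and 12.61 in seedling.

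Across the 191 members, Pearson's r of group medians between 8 mm anthers and tissues that did not enter the rule was 0.43 for 8 mm buds, 0.28 for leaf and 0.29 for seedling. Between bud sizes r was 0.98 for 8 and 7 mm and 0.94 for 8 and 5 mm, and between leaf and seedling it was 0.87. These values describe members that were chosen on their 8 mm anther level and that share arrays, probe design and lower limit, and members are not independent replicates.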

How the data were processed

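GCRMA log2 expression values, as deposited by the authors, were used without further normalization; the method is named per the submitters' processing notes, without a version. Target was prepared by 3′ in vitro transcription, per the labels' protocols. The table held 24132 probe sets, of which 155 controls were left out, and 26.2% of all values were equal to its minimum, which compresses differences from there. The 95th percentile of 69 reporter and tag controls without target, 2.23, was taken as background, and 17666 probe sets above it on at least 3 arrays were tested. All 191 members passed.

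A model with 8 group means was fitted to 24 arrays with limma 3.58.1 in R 4.3.3. P-values were two-sided and Benjamini-Hochberg adjusted over all tested probe sets; calls required 0.05 after adjustment and a log2 difference of at least 1. The p-values rest on the spread between the 3 arrays of a group, pooled over all 8 groups, anthers included. The small number of arrays limits the precision. Only comparisons among buds, leaf and seedling were tested. The fit was tested on simulated data. The rule for named probe sets took every member with a symbol, the 8 largest leads, the 5 highest levels in 8 mm anthers, 8 mm buds, leaf and seedling, the 3 members on each side of the step limit, and the 3 strongest calls per direction and comparison; probe sets given beyond these were chosen after their values were seen. The members, lists and rules were chosen with earlier results of these data known. Symbols (697 single, 46 probe sets with several) matched assembly Gossypium_hirsutum_v2.1; no sequence or coordinate was used. Alternatives covered scaling, filter, floor, arrays in the fit, thresholds, variance prior, replicate number as a block and arrays left out. Figures were drawn with matplotlib 3.10.9.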

Additional observations from a re-analysis of the deposited data

Results flagged for a closer look

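In 5 of the named members the 8 mm arrays all lay above the 5 mm arrays in anthers, as the rule favours, and all below them in buds. The difference between tissues was not tested, since the anther arrays chose the members. Ghi.8804.1.S1_at differed by 1.40 in anthers and by -1.66 in buds (8 minus 5 mm, log2 means). LOC107940910 (Ghi.7874.1.S1_s_at) differed by 2.45 and -0.90, and Ghi.137.1.A1_at by 1.89 and -0.46. Ghi.7797.1.S1_s_at differed by 3.50 and -0.45, and LOC107925162 (GhiAffx.29316.1.S1_s_at) by 1.60 and -0.24. The bud side of Ghi.7797.1.S1_s_at is slight. Its 8 mm bud arrays were all at 3.176, and its 5 mm bud arrays were at 4.313, 3.392 and 3.184. In anthers its 8 mm replicate 7 was at 3.184. Over all members 17 showed the pattern of these 5. Its anther side follows from the rule, and its bud side alone was found in 9.42% of members, against 11.7% of all tested probe sets.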

How the results depend on the processing

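Quantile normalization, no filter, a floor at background and a trended and robust variance prior kept every count within 1.5 times its main value. Single calls still changed. Without the filter, GhiAffx.32086.1.S1_at lost its call from 5 to 8 mm buds (limma adjusted p = 0.0800). Ghi.1097.1.S1_s_at likewise lost its call from 5 to 7 mm buds (limma adjusted p = 0.0727). Median centring gave 7 members at background on all 15 other arrays (in place of 4) and 11 lower in 8 mm anthers than in 8 mm buds (in place of 19). Spike-in scaling, chosen after seeing the data, mixes a shift with a common floor. It gave 104 members, 84 higher and 30 lower in 8 mm anthers than in 8 mm buds, 2 higher and 0 lower from 5 to 8 mm buds, 1 higher from 5 to 7 mm buds, 33 lower in buds than in leaf, 54 higher and 21 lower in buds than in seedling, and 19 higher in seedling than in leaf. Steps of 1 and 2 gave 373 and 127 members.

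With the replicate number as a block, 2 members were higher and 0 lower from 5 to 8 mm buds, 1 higher from 5 to 7 mm buds and 7 lower in seedling than in leaf. Compared groups share at most 2 numbers, and same-numbered arrays of tested groups had deviations correlated between -0.16 and 0.15, so the number was not taken as a pairing. Fits of the 6 compared arrays alone gave 2 higher and 0 lower from 5 to 8 mm buds, 1 higher from 7 to 8 mm and 1 higher from 5 to 7 mm. The adjusted p alone gave 2 lower from 5 to 8 mm buds, and so did the fit of the 15 arrays without anthers, which also gave 1 higher from 7 to 8 mm. Without the 2 anther arrays that stood apart, 13 were higher and 2 lower from 5 to 8 mm buds and 1 higher from 7 to 8 mm. Without bud replicates 2 (5 mm), 3 (7 mm) and 6 (8 mm), which stood apart, 4 were lower from 5 to 8 mm. In that fit 1 was lower from 7 to 8 mm, and 7 were higher and 1 lower from 5 to 7 mm. Leaving out these bud arrays, leaving out the 2 anther arrays and fitting the 15 arrays were not planned beforehand. The causes were not tested.

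With single arrays left out, the rule found 157 to 207 members, members higher from 5 to 8 mm buds numbered 4 to 9 and lower ones 0 to 6, and from 5 to 7 mm buds 1 to 6 were higher and 0 to 1 lower. Members climbing from 5 to 7 mm anthers numbered 39 to 89 and those lower 3 to 15. The other counts moved by less than 1.5 times. Many members are near the lower limit in some tissue, and there the number of arrays and the compressed scale limit what can be seen.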
